A study of Homo sapiens with 6 samples.

Results

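Divergent promoter pairs are the subject here: 2 genes read away from each other from start sites a short distance apart. Promoter windows of 2001 bp, each reaching 1000 bp to either side of a transcription start, were paired by position alone. A minus-strand window and a plus-strand window formed a pair when the plus-strand centre lay 500 to 2000 bp to the right of the minus-strand centre on the same autosome. This gave 154 pairs made of 296 windows, which is 1.48% of the 19957 windows in the deposited table and 1.55% of its 19050 autosomal windows. In 125 pairs no other window interfered, 21 pairs had another centre between them, and 12 windows belonged to 2 pairs, so those pairs share data. Centre distances ran from 506 to 1978 bp with a median of 1060.5 bp, in 70 pairs under 1000 bp, 45 from 1000 to under 1500 bp and 39 from 1500 bp upwards.

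Bidirectional promoters are common in mammalian genomes. The space between the starts is often a CpG island, which lacks the depletion of the CG dinucleotide seen elsewhere, and transcription from both starts can draw on 1 stretch of open chromatin. NuMA (nuclear mitotic apparatus protein, labelled TDIF in this study) is best known for organising spindle poles in mitosis and is a large nuclear protein in interphase.

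Chromatin immunoprecipitation with sequencing (ChIP-seq) was made from wild-type MRC5 cells, an established line of human lung fibroblasts, with no treatment named in the labels. The ChIP was made with an antibody to NuMA (2 libraries) or with non-specific immunoglobulin G, IgG (2 libraries), and 1 input library of unselected chromatin was sequenced for each arm. The question the design poses is where NuMA ChIP stands above IgG and above input. No label ties a replicate to a culture of its own, so every p-value measures the spread between these libraries, which may be technical. Genomic DNA carries no expression markers, so the cell type could not be checked from these counts. Counts over all promoter windows totalled 1080879 and 664234 for NuMA, 616242 and 366594 for IgG, 729744 for the NuMA input and 791361 for the IgG input. Values below are CPM, each count divided by its library's total over all promoter windows and scaled to a common total, in which 1 count is worth 0.925 to 2.73 CPM depending on the library.

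Promoter sequences from the pairs named below are shown first, since the results turn on these pairs and on promoter composition. For FNDC4 with GCKR and C1orf232 with ZNF593 both partners are given. CHRD, CD3D, UBALD1 and MT1H are shown without theirs. Each is the RefSeq promoter (GRCh38.p14) from 250 bases before to 50 after the RefSeq start, written from the 5' side in the direction of the gene, with every CG dinucleotide in capitals. All 8 sequences lie wholly inside the stretch of their window that no other window covers. CHRD is at chr3:184379804-184380103 on the plus strand (81.3% GC, 36 CG). FNDC4 is at chr2:27495151-27495450 on the minus strand (75.7% GC, 35 CG) and its partner GCKR at chr2:27496589-27496888 on the plus strand (58.3% GC, 3 CG). C1orf232 is at chr1:26168533-26168832 on the minus strand (53.0% GC, 2 CG) and its partner ZNF593 at chr1:26169658-26169957 on the plus strand (72.7% GC, 30 CG). CD3D is at chr11:118342656-118342955 on the minus strand (52.3% GC, 5 CG). UBALD1 is at chr16:4614839-4615138 on the minus strand (72.0% GC, 43 CG), and MT1H at chr16:56669564-56669863 on the plus strand (68.3% GC, 25 CG).
CHRD: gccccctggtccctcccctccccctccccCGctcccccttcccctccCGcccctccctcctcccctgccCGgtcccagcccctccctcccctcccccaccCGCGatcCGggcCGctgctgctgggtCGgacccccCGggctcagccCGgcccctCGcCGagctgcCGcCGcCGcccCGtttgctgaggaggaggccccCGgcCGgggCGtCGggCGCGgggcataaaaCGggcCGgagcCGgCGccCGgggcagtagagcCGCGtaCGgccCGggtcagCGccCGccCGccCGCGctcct
FNDC4: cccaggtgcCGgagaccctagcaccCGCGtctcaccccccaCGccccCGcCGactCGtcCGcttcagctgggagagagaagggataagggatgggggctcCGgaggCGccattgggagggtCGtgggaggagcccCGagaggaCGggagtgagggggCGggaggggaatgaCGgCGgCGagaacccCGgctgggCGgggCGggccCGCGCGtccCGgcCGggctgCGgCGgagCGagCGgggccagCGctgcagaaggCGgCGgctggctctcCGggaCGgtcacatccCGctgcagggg
GCKR: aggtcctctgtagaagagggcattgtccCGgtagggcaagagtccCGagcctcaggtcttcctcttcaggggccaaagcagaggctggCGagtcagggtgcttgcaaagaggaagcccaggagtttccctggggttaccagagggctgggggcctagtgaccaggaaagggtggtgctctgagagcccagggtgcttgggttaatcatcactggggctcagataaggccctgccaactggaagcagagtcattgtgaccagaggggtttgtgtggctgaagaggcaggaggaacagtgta
C1orf232: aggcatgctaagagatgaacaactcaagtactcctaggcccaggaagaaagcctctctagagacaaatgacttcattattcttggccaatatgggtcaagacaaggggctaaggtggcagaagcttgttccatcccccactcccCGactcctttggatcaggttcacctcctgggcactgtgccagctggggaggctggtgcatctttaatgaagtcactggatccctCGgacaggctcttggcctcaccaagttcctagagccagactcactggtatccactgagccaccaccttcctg
ZNF593: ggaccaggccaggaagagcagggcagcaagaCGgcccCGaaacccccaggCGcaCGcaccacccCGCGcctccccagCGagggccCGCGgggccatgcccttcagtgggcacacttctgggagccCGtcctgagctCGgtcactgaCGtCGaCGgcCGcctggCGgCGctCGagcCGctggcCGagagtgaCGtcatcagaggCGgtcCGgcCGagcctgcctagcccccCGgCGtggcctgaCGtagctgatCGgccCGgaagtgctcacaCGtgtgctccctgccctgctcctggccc
CD3D: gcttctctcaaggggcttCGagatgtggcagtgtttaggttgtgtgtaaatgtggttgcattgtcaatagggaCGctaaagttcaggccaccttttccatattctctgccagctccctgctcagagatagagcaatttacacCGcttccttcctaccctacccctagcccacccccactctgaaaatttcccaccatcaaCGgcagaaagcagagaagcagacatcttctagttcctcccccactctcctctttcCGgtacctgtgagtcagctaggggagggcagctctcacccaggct
UBALD1: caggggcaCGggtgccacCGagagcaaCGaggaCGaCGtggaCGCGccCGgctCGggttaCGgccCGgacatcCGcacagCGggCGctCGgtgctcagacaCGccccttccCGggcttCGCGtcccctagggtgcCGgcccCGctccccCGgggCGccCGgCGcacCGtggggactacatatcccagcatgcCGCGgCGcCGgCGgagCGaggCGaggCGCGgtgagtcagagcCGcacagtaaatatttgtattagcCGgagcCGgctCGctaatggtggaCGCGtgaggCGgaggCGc
MT1H: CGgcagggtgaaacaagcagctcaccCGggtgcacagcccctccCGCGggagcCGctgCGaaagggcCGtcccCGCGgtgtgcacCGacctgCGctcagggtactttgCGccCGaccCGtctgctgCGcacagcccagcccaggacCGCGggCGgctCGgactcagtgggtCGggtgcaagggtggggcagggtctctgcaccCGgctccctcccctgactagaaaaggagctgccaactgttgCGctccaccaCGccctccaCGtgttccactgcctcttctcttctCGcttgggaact

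What a member's count measures depends on its neighbour. The windows of a pair overlap by 2001 minus their distance, a median of 940.5 bases, and counts followed the bases of a window that no other window covers. Among autosomal windows, all 144 with no base of their own had a count of 0 in both inputs. The mean count in the NuMA input rose from 1.63 in windows with 1 to 250 unshared bases to 46.5 in those with over 1750. Across the 3637 overlapping autosomal windows the summed input count and the unshared bases had a Pearson r of 0.834, a description over windows of the same libraries, and the fitted line reached 0 counts at 44 unshared bases. These values are those of a table in which reads in shared sequence were left out. The members' counts are therefore values of the stretch of each window that its neighbours do not cover. In pairs up to 1000 bp apart this lies outside both starts, and in wider pairs it takes in the start and a part of the space between the starts. In the 57 uncomplicated pairs up to 1000 bp apart, neither start lies in its own counted stretch, and the nearest counted base lies 32 to 485 bp downstream of the start (median 274). Of all members, 142 had their own start in the counted stretch and 154 did not, and 20 had no count in any library.

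**Figure D1:**
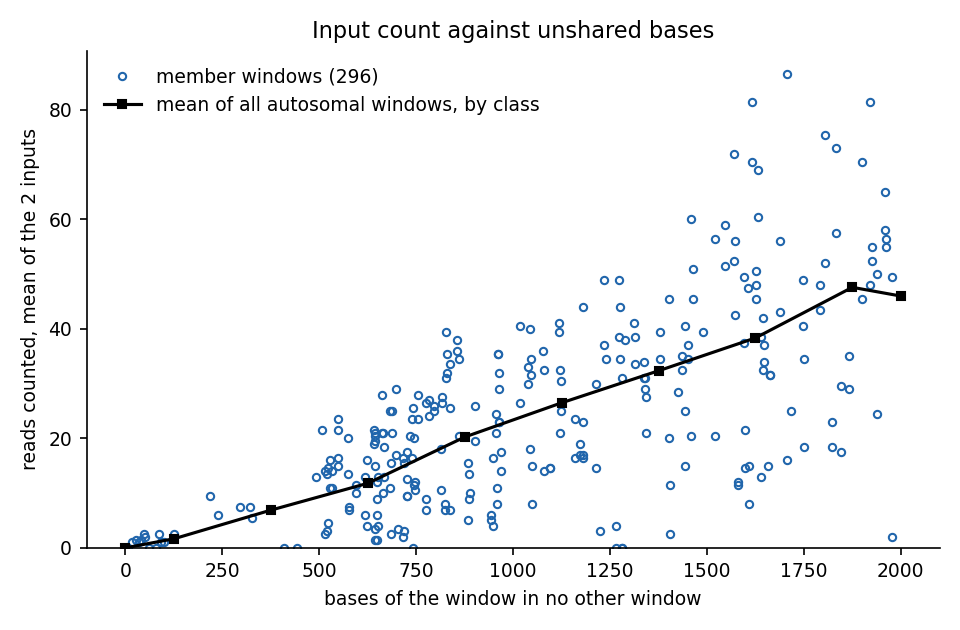
Reads counted per window (vertical axis, mean of the 2 input libraries) against the bases of the 2001 bp window that no other window covers (horizontal axis). Circles are the 296 members and the black line joins means of all autosomal windows in 10 classes of unshared bases; the line starts at 0 with no unshared base, rises through the classes up to 2000 bases and is slightly lower in windows that share none.

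Members took a smaller share of the counts in the NuMA libraries than in the others. The share was 0.688% and 0.75% for NuMA ChIP, 0.819% and 0.79% for IgG, 0.947% for the NuMA input and 0.906% for the IgG input. Both NuMA values lie under both IgG values, and all 4 ChIP values lie under both inputs. The median member had 13 and 10 counts in NuMA, 14 and 8 in IgG, and 20 and 21.5 in the inputs. Per library, the median member's log2 ratio to the mean input, on a log2(CPM + 1) scale, was set against that of all other autosomal windows with at least 10 input counts. The difference, members minus others, was -0.30 and -0.41 in NuMA and -0.21 and -0.24 in IgG, over 246 members and 16149 other windows. NuMA was thus lower by 0.13 (-0.35 ± 0.08 against -0.23 ± 0.02, SD, n = 2 each), with an exact two-sided permutation p of 0.333, the smallest that 2 libraries against 2 can give.

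The NuMA ratio to input was lower in members whose own start was not counted. For the 135 such members with their start in the counted stretch, the median log2 ratio to input was -0.70 and -0.46 in the NuMA libraries and -0.33 and -0.33 in IgG. For the 111 members whose counts come only from sequence outside their start, it was -1.27 and -0.88 in NuMA and -0.24 and -0.40 in IgG. Both NuMA libraries lay below both IgG libraries in each set, by more in the second. The order itself is not particular to members. In the 16149 other autosomal windows the medians were -0.68 and -0.30 in NuMA and -0.07 and -0.11 in IgG. Counted minus not counted came to 0.57 and 0.42 in NuMA and -0.09 and 0.07 in IgG, a mean of 0.50 ± 0.11 against -0.01 ± 0.12 (SD, n = 2 each). NuMA exceeded IgG by 0.51 in this difference (exact two-sided permutation p = 0.333, the smallest possible). The window-by-window fit of NuMA over IgG, described below, hardly showed it in the members that passed its count filter. The median log2 fold change there was -0.08 in 123 members with the start counted and -0.11 in 66 without. In the first set 13.0% were higher and 15.4% lower, in the second 10.6% and 12.1%. Windows with starts not counted also have fewer bases and fewer counts, and the part of that in the difference was not tested.

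**Figure D2:**
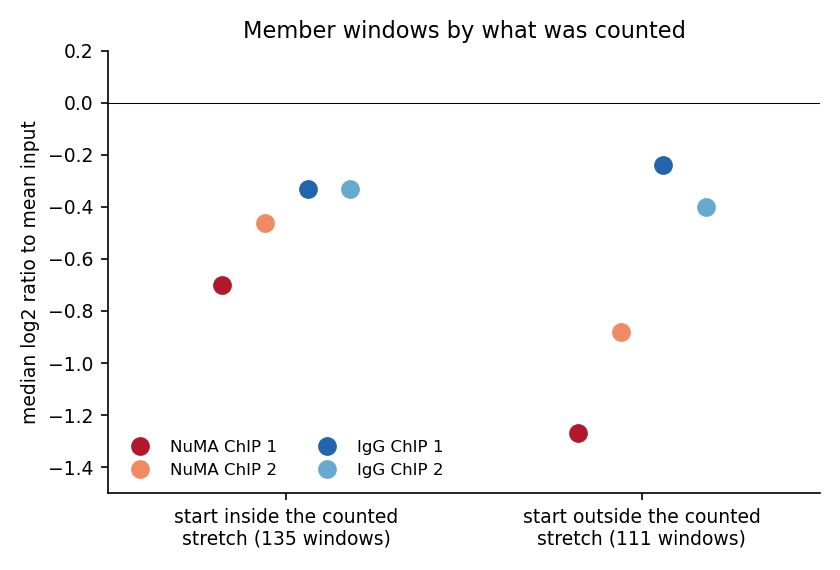
Median log2 ratio of each ChIP library to the mean of both inputs (vertical axis) for members whose own start is counted (left) and members whose start lies in sequence shared with another window (right); each point is 1 library. NuMA lies at -0.70 and -0.46 on the left and at -1.27 and -0.88 on the right, while the IgG libraries stay between -0.40 and -0.24. NuMA also lies below IgG in the 16149 other autosomal windows, which are not drawn.

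NuMA ChIP was then compared with IgG ChIP window by window, with edgeR's quasi-likelihood test fitted over all windows and Benjamini-Hochberg adjustment at 0.05. The low-count filter (about 10 counts in at least 2 libraries) left 189 of the 296 members, since overlap lowers their counts. In NuMA, 23 members (12.2% of those tested) were higher than IgG, beside 16.8% of all windows tested, and 27 (14.3%) were lower, beside 23.9% of all. The median log2 fold change was -0.08 for tested members and -0.04 for all tested windows. The NuMA libraries both exceeded the IgG libraries in 52 members (27.5%, against 32.0% of all windows) and below both in 71 (37.6%, against 40.8%). These shares are of members that passed the filter, and a window that passed only through the group where it is high had to differ. Scaling by signal in the flanks of the deposited start-site profile, in place of TMM, moved the median of all windows up by 1.30 and the members to 85 higher and 5 lower, so directions here are relative to the typical promoter window. Taking each arm over its own input left 4 higher (HES4, PLEKHA3, FBXW5 and SAMD10) and 1 lower (ENSG00000164283), so every other single-window call over IgG named below was lost in that comparison. Without the first NuMA library 3 members were higher and 9 lower. The lower count was 13 without the first IgG library, 10 without the second and 16 without the second NuMA library.

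The called members were not of 1 functional kind, and the genes named in this paragraph were chosen after their values were seen. KLHL17, which encodes an actin-binding Kelch protein, had 149.9 and 88.8 CPM in NuMA, 19.5 and 24.6 in IgG, and 53.4 and 37.9 in the inputs. Both NuMA libraries stood above all 4 others, at 2.67 over IgG on the log2 scale (SE 0.46, adjusted p = 7.71e-06). The window of NOC2L, its partner at 1276 bp, stood at 33.3 and 42.1 CPM in NuMA and 42.2 and 30 in IgG, where the groups overlap (log2 0.20, adjusted p = 0.785). HES4, a Notch-responsive transcriptional repressor, had 86.0 and 79.8 CPM in NuMA against 37.3 and 5.46 in IgG (log2 1.98, adjusted p = 0.000801), a call lost without the first NuMA library at 1.84. At the other end, TTC9C had 1.85 and 0 CPM in NuMA (2 counts and 0), 22.7 and 32.7 in IgG, and 31.5 and 34.1 in the inputs. NuMA was below every other library there (log2 fold change -4.23, SE 1.14, adjusted p = 0.0027), a call lost without either NuMA library (-6.90 without the first, -3.45 without the second) or the second IgG library (-3.93).

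Most calls fell on 1 window of a pair and not on its partner. Of the 154 pairs, 71 had both windows tested, 54 had 1 and 29 had none. Among the 71, no pair had both windows higher and 1 had both lower. In 2 pairs, at CHRD and at LRP12, 1 window was higher and the other lower, in 18 pairs 1 was higher and its partner not called, and in 14 pairs 1 was lower and its partner not called. In the remaining 36 neither was called. Only 12.2% of tested members were higher and 14.3% lower, so pairs with both windows called would be rare even with unrelated partners. The same counts were not made over wider pairs, so this pattern is not shown to be particular to members. Partners had log2 fold changes of 1 sign in 35 of the 71 pairs (49.3%), beside 55.6% of the 444 divergent pairs from over 2000 to 10000 bp apart. The share was 13 of 18 (72.2%) in pairs under 1000 bp and 22 of 53 (41.5%) in wider members. Across the 71 pairs the Pearson r of the partners' log2 fold changes was 0.0588, beside 0.168 over those 444 wider pairs. Both are descriptions over pairs that share the same 4 libraries, and 1 sign is meant relative to TMM scaling.

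**Figure D3:**
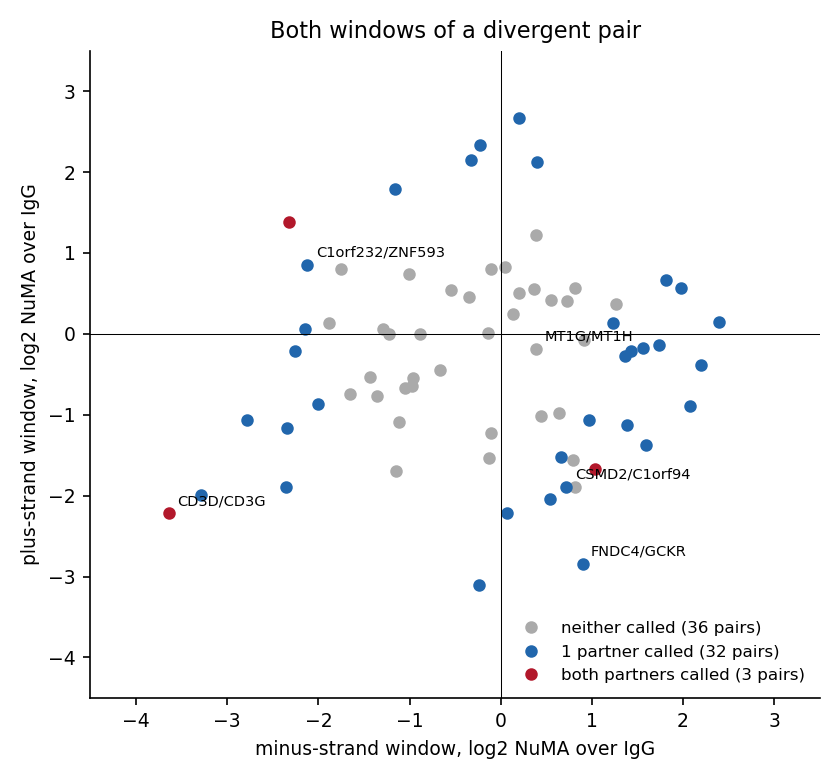
Log2 fold change of NuMA over IgG in the minus-strand window (horizontal axis) and the plus-strand window (vertical axis) of the 71 pairs with both windows tested; each point is 1 pair, coloured by how many of its windows passed the adjusted p of 0.05. The points spread over all 4 quadrants, with 36 pairs not called, 32 with 1 window called and 3 with both.

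CD3D and CD3G formed the pair with both windows lower in NuMA. They encode chains of the CD3 complex of the T-cell receptor and lie 1598 bp apart on chromosome 11, in windows chr11:118341745-118343745 and chr11:118343343-118345343. The CD3D window had 3.70 and 1.51 CPM in NuMA (4 counts and 1), 45.4 and 38.2 in IgG, and 20.6 and 35.4 in the inputs. NuMA lay below all other libraries, and the log2 fold change over IgG was -3.64 (SE 0.93, adjusted p = 0.00162). CD3G had 8.33 and 7.53 CPM in NuMA, 19.5 and 68.2 in IgG, and 17.8 and 20.2 in the inputs, again with both NuMA libraries lowest (log2 -2.22, SE 0.81, adjusted p = 0.0248). The CD3D call was lost without the first IgG library (-3.30), and the CD3G call without the second IgG library (-1.03) or either NuMA library (-2.41 without the first, -2 without the second). The IgG libraries stood above both inputs at CD3D, and CD3D was the only member among the 9 listed blood marker genes with a window in the table.

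Whether partners differed was next tested directly, as a change of the plus to minus ratio between NuMA and IgG within each pair. This ratio does not depend on how libraries are scaled. The test ran over all autosomal divergent pairs up to 10000 bp apart. Of the 130 member pairs tested, 24 passed the adjusted p of 0.05 (18.5%), beside 19.3% of all 781 pairs tested. The count filter let a pair through on the counts of 1 window. The pairs tested therefore include some with an empty partner, such as TRAPPC6A with BLOC1S3, that could not be called. The called shares here and by distance count such pairs in their totals. The plus-strand window was the relatively higher one in NuMA in 10 and the minus-strand window in 14. Their absolute log2 differences ran from 2.01 to 4.12. By distance, the called share was 14.8% of 54 pairs from 500 bp, 18.9% of 37 from 1000 bp and 23.1% of 39 from 1500 bp, and 20.2% of 223 pairs from over 2000 to 5000 bp. Overlap leaves fewer counts at shorter distances, and its part in this order was not tested. The count of 24 was 7 without the first NuMA library, 10 without the first IgG library and 5 without the second IgG library.

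The smallest p belonged to the pair at CHRD, the gene of chordin, a secreted antagonist of bone morphogenetic proteins. Its windows are chr3:184377145-184379145, on the minus strand and known here only as ENSG00000090534, and chr3:184379072-184381072 for CHRD, 1927 bp apart. The CHRD window had 170.2 and 108 CPM in NuMA, 58.4 and 65.5 in IgG, and 53.4 and 89.7 in the inputs. Both NuMA libraries were the highest there. The opposite window had 16.7 and 10.5 CPM in NuMA, 89.3 and 70.9 in IgG, and 53.4 and 83.4 in the inputs, and both NuMA libraries were the lowest. Counts in the plus window over counts in the minus window came to 10.2 and 10.3 in NuMA, 0.655 and 0.923 in IgG, and 1 and 1.08 in the inputs. The log2 difference was 3.72 (SE 0.66, adjusted p = 0.000481), and it kept its call under every alternative run. Alone, CHRD was higher (log2 1.38, adjusted p = 0.00949) and its partner lower (-2.32, adjusted p = 0.000321) than IgG. The CHRD call by itself was lost without the first NuMA library (0.88).

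FNDC4 and GCKR, 1595 bp apart on chromosome 2, separated in the other orientation. FNDC4 encodes a secreted fibronectin type III domain protein and GCKR the glucokinase regulator of liver. FNDC4 (chr2:27494246-27496246) had 101 and 99.4 CPM in NuMA, 74.6 and 43.6 in IgG, and 49.3 and 79.6 in the inputs. GCKR (chr2:27495841-27497841) had 12 and 6.02 CPM in NuMA, 71.4 and 87.3 in IgG, and 49.3 in each input. NuMA was thus highest in 1 window and lowest in its neighbour, with no overlap between NuMA and IgG in either. The GCKR to FNDC4 ratio was 0.119 and 0.0606 in NuMA, 0.957 and 2 in IgG, and 1 and 0.619 in the inputs. The log2 difference was -3.82 (SE 0.72, adjusted p = 0.00075) and also kept its call under every alternative run. GCKR alone was lower than IgG (-2.84, SE 0.57, adjusted p = 9.17e-05), while FNDC4 stood at 0.90 over IgG (SE 0.40, adjusted p = 0.0605).

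C1orf232 and ZNF593, 1288 bp apart on chromosome 1, came next. ZNF593 encodes a zinc finger protein and C1orf232 is an open reading frame named only by its place. C1orf232 (chr1:26167582-26169582) had 18.5 and 13.5 CPM in NuMA, 79.5 and 84.6 in IgG, and 42.5 and 56.9 in the inputs. ZNF593 (chr1:26168870-26170870) had 56.4 and 45.2 CPM in NuMA, 47.1 and 13.6 in IgG, and 49.3 and 41.7 in the inputs. NuMA was lowest at C1orf232 without overlap and overlapped IgG at ZNF593. Their log2 difference was 3.12 (SE 0.78, adjusted p = 0.00654), a call lost without the second IgG library (2.41).

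In the next pairs NuMA was again lowest of all libraries in 1 window and above IgG in the other. CBX1, which encodes the beta form of heterochromatin protein HP1, lies on chromosome 17 at chr17:48100522-48102522. It had 72.2 and 79.8 CPM in NuMA, 61.7 and 54.6 in IgG and 94.6 and 97.3 in the inputs, a fold change that did not pass (log2 0.54, adjusted p = 0.254). The plus-strand window 1834 bp away, ENSG00000002919, had 20.4 and 24.1 CPM in NuMA against 63.3 and 147.3 in IgG and 72.6 and 78.3 in the inputs. The difference was -2.48 (SE 0.67, adjusted p = 0.0117), lost without the second IgG library (-1.81). CSMD2, the gene of a large membrane protein with CUB and sushi domains, had 92.5 and 78.3 CPM in NuMA, 69.8 and 46.4 in IgG, and 46.6 and 40.4 in the inputs at chr1:34164843-34166843. C1orf94, 1039 bp away at chr1:34165882-34167882, had 11.1 and 16.6 CPM in NuMA, 56.8 and 57.3 in IgG, and 48.0 and 31.6 in the inputs. Here too NuMA was high in 1 window and lowest in the next (difference -2.62, SE 0.71, adjusted p = 0.0117). That call was lost without the first NuMA library (-2.19), the first IgG library (-2.96) or the second (-2.36).

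LRP12, a member of the low-density lipoprotein receptor family on chromosome 8, was the other gene with a higher window facing a lower one, 1707 bp apart. Its window had 72.2 and 103.9 CPM in NuMA, 38.9 and 57.3 in IgG, and 123.3 and 104.9 in the inputs, so NuMA was above IgG and below the inputs. The opposite window, ENSG00000169946, had 7.40 and 21.1 CPM in NuMA, 32.5 and 65.5 in IgG, and 24.7 and 17.7 in the inputs. Over IgG the log2 fold changes were 1.04 (adjusted p = 0.0333) and -1.67 (adjusted p = 0.0478), and the partner difference was -2.70 (SE 0.74, adjusted p = 0.0122). The LRP12 call was lost without either NuMA library (1.20 without the first, 0.95 without the second) or the first IgG library (0.98). The call of its partner was lost without any of the 4 ChIP libraries, at -2.34 to -1.02.

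**Figure D4:**
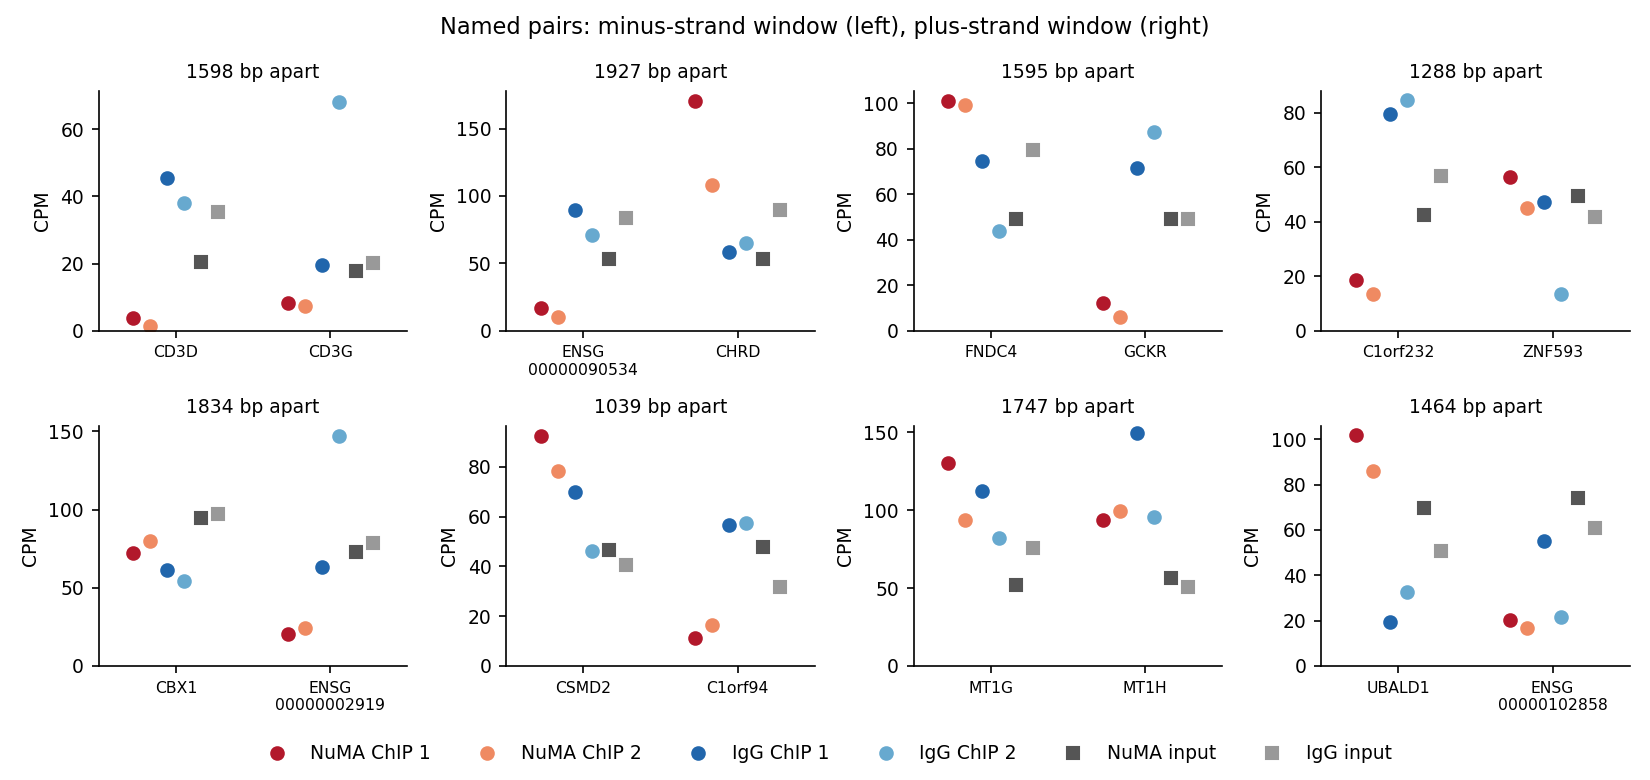
CPM of each library (vertical axis, from 0) in the minus-strand window (left in each panel) and plus-strand window (right) of the 8 pairs named by rule; circles are ChIP libraries and squares inputs, 1 point a library. At CHRD and at GCKR NuMA lies above both IgG libraries in 1 window and below both in the other, 1927 and 1595 bp apart, and at MT1G and MT1H the groups overlap in both windows.

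NuMA was also set against the inputs, with both inputs as the reference and the same NuMA libraries, so this is no independent view of them. The filter kept 243 members. Of these 21 (8.64%) were higher than input, beside 17.2% of all windows tested, and 14 (5.76%) were lower, beside 11.9% of all. Their median log2 fold change was -0.26, against 0.03 for all windows. It was -0.59 in 104 members with a partner under 1000 bp away, -0.17 in 69 from 1000 to 1500 bp and -0.09 in 70 from 1500 bp. Other windows with close neighbours also stood lower than all windows. The median was -0.52 in 724 windows with same-strand or convergent neighbours at 500 to 2000 bp (7.6% higher, 8.84% lower). In 140 divergent windows under 500 bp apart it was -0.66 (7.14% higher, 0.714% lower). Among members with their start counted 16 were higher and 13 lower of 137 tested, and among those without it 5 were higher and 1 lower of 106. Without the first NuMA library 3 were higher and 6 lower.

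The metallothionein genes MT1G and MT1H, which encode small metal-binding proteins, were the pair with both windows above input. They lie 1747 bp apart on chromosome 16, at chr16:56667066-56669066 and chr16:56668813-56670813. MT1G had 130.4 and 93.3 CPM in NuMA, 112 and 81.8 in IgG, and 52.1 and 75.8 in the inputs. MT1H had 93.4 and 99.4 CPM in NuMA, 149.3 and 95.5 in IgG, and 56.2 and 50.5 in the inputs. All 4 ChIP libraries exceeded both inputs in each window, and NuMA and IgG overlapped. NuMA over input was 1.31 (SE 0.43, adjusted p = 0.0139) and 1.30 (SE 0.44, adjusted p = 0.0147), and NuMA over IgG 0.39 (adjusted p = 0.445) and -0.19 (adjusted p = 0.726). Both calls over input were lost without the first NuMA library (0.78 and 1.11), and these genes have close copies nearby that reads may not tell apart. The other 3 pairs with both windows past the threshold over input had 1 higher and 1 lower: CHRD and FNDC4 with their partners, and UBALD1, which encodes a protein with a ubiquitin-associated-like domain. Over input CHRD stood at 1.49 (adjusted p = 0.00481, lost without the first NuMA library at 0.85) and its partner at -1.77 (adjusted p = 0.00282). FNDC4 stood at 1.13 (adjusted p = 0.0259, lost without the first NuMA library at 0.87) and GCKR at -1.89 (adjusted p = 0.00531, lost without the second at -1.46). UBALD1 (chr16:4614028-4616028) had 101.8 and 85.8 CPM in NuMA, 19.5 and 32.7 in IgG and 69.9 and 50.5 in the inputs (log2 1.12 over input, adjusted p = 0.0252, lost without the first NuMA library at 0.74). Its partner ENSG00000102858, 1464 bp away, had 20.4 and 16.6 CPM in NuMA, 55.2 and 21.8 in IgG, and 74.0 and 60.7 in the inputs (-1.37, adjusted p = 0.0327, lost without either NuMA library at -1.80 and -1.14).

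Some members were high in NuMA although their start was not counted, and these were picked after their values were seen. TLX3, a homeobox gene of neural development, has a partner window 527 bp away and 527 bases of its own. It had 109 and 96.4 CPM in NuMA, 38.9 and 40.9 in IgG, and 17.8 and 24.0 in the inputs. NuMA stood above IgG and IgG above the inputs, with log2 fold changes of 1.55 over IgG (adjusted p = 0.00234, lost without the first NuMA library at 1.33) and 2.77 over input (SE 0.45, adjusted p = 5.03e-07). PAQR9, a membrane receptor gene of the progestin and adipoQ family, has 813 bases of its own. It had 73.1 and 93.3 CPM in NuMA, 37.3 and 21.8 in IgG, and 27.4 and 20.2 in the inputs (log2 1.59 over IgG, adjusted p = 0.00313, and 2.25 over input, adjusted p = 6.97e-05). The calls of both genes over input held under every alternative run.

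IgG against input, the background pull-down, gave no called member among 243 tested, beside 0.238% of all windows higher and 0.0639% lower. The members' median was -0.05 and that of all windows 0.13. At an unadjusted p of 0.05, 23 members passed (9.47%, against 15.8% of all windows), and DESeq2 also called none.

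Gene groups were fixed lists of symbols that do not hold every gene of a kind, and each supplied few members. Members are 1.48% of all windows. They made up 10.8% of the histone windows, 5.83% of the DNA repair list and 3.53% of the mitochondrial list. The share was 1.12% in developmental regulators and 0.889% in zinc finger genes. These shares were not tested. Replication-dependent histone genes, which lie in clusters and are transcribed in S phase, supplied 8 members of the 74 histone windows in the table. The name of 1 of them, H2AC20, is doubtful, since it came from a gene 971 bp from the window centre. That window has no count in any library. Of the 6 tested, 1 was lower and none higher (median log2 fold change -1.62, and -0.85 over all 31 histone windows tested, 7 of them lower). H3C7 had 0 and 10.5 CPM in NuMA, 17.9 and 35.5 in IgG, and 58.9 and 46.8 in the inputs, with both NuMA libraries lowest (-2.35, adjusted p = 0.0485). That call was lost without the first NuMA library (-1.24), the first IgG library (-2.55) or the second (-1.71). H3C8 had 22.2 and 13.5 CPM in NuMA and 4.87 and 43.6 in IgG, where NuMA lies between the IgG libraries (-0.13, adjusted p = 0.906). Histone genes also have near-identical copies, so their counts are uncertain.

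The DNA repair list supplied 6 members of 103 windows (FANCA, FANCM, LIG1, MPG, POLE and RAD51C), of which 2 were tested and 1 was higher. Over the whole list 4 of 52 tested windows were higher and 7 lower. FANCA, of the Fanconi anaemia core complex, had 54.6 and 75.3 CPM in NuMA, 24.3 and 21.8 in IgG, and 94.6 and 55.6 in the inputs. NuMA was above IgG without overlap but within or below the inputs (log2 1.62 over IgG, adjusted p = 0.00735, lost without either NuMA library at 1.75 and 1.56, and 0.27 over input, adjusted p = 0.66). MPG, a glycosylase that removes alkylated bases, had 42.6 and 22.6 CPM in NuMA against 22.7 and 10.9 in IgG, where the groups overlap (1.12, adjusted p = 0.189). The list of nuclear genes for mitochondrial proteins, mainly of the respiratory chain and the mitochondrial ribosome, supplied 6 windows of 170. Of these 3 were tested and 1 was higher, beside 7 higher and 15 lower of 92 tested over the whole list. Members with mitochondrial roles outside this list were not counted. MRPL41, of the mitochondrial ribosome, had 53.7 and 55.7 CPM in NuMA, 9.74 and 19.1 in IgG and 42.5 and 13.9 in the inputs. It stood above IgG without overlap (2.15, adjusted p = 0.00414), a call lost without the first NuMA library (2.04), and NDUFA13 of respiratory complex I was the lowest at -1.27 (adjusted p = 0.265). The list of developmental regulators, chosen by symbol families such as HOX, FOX and SOX, supplied FOXH1 and FOXA3 of 179 windows. Genes with a numbered ZNF symbol supplied 4 of 450, with ZNF593 the 1 tested, and none of these members had a call. The first list leaves out TLX3, the homeobox gene described above, which was higher over IgG (1.55, adjusted p = 0.00234). Over the whole lists, 72 of 165 tested windows of developmental regulators were higher and 11 lower, and 29 of 343 of zinc finger genes were higher and 61 lower. The lists of immediate early genes, matrix and fibroblast genes, and markers of liver, epithelium, neuron and endothelium supplied no member.

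Promoter composition went with the direction of the NuMA to IgG difference. RefSeq promoters starting within 250 bp of the window centre were found for 122 members, 77 of them tested. Median GC was 73.3% in the 13 higher members, 57.3% in the 8 lower and 63.3% in the 56 not called, and over all windows it was 73.3% in the higher and 53.3% in the lower. The GC content and log2 fold change had a Pearson r of 0.63 over the 77 members and 0.657 over 6753 windows. Windows share libraries, and where its start is counted a promoter shares base composition with the reads, so these are descriptions. In members whose own start was not counted, the promoter lies wholly or partly outside the counted stretch. GC there describes sequence beside the reads. The r with NuMA over input was 0.55 in members (0.373 in all), and with IgG over input -0.264 (-0.514 in all). In the GC-richest of 5 equal classes of windows, from 72.7% GC, 8 of 18 members were higher and none lower, beside 45.6% and 0.221% of all windows there (median 1.02, beside 0.99). In the GC-poorest class, up to 53.3%, 1 of 10 members was higher and 3 lower, beside 2.04% and 53.7% of all windows (median -1.63, beside -1.67). The middle class, from 61.0% to 66.3%, had 0 of 18 members higher and 1 lower, beside 9.27% and 14.8%, and a median of -0.60 beside -0.07. The part of GC-dependent recovery in any of these values was not tested.

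**Figure D5:**
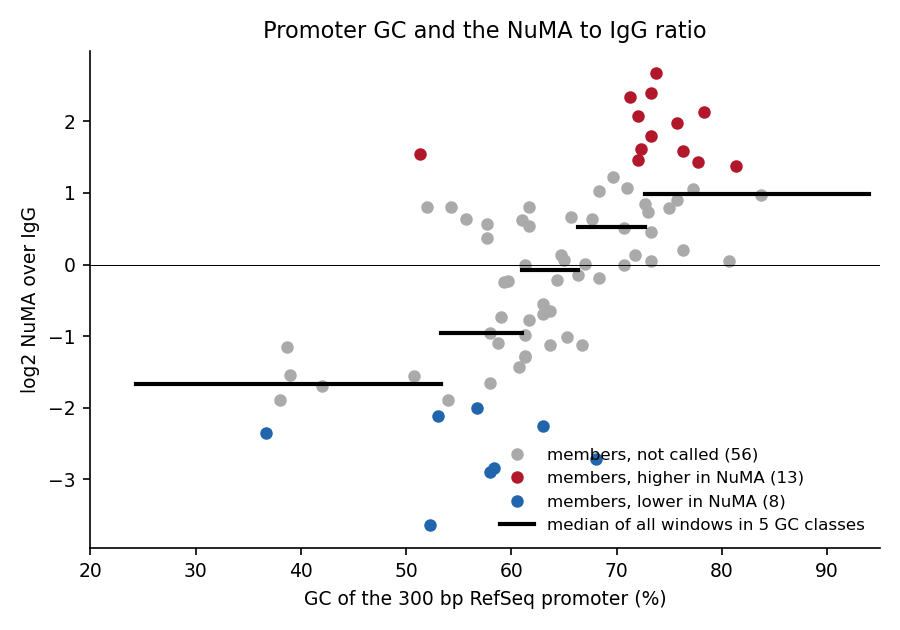
Log2 fold change of NuMA over IgG (vertical axis) against the GC content of the 300 bp RefSeq promoter (horizontal axis) for the 77 tested members with a sequence, coloured by call; black bars are medians of all windows in 5 equal classes of GC. The bars run from -1.67 to 0.99, the members' medians lie near them in 4 classes and at -0.60 beside -0.07 in the middle class, and TLX3, at 51.3% GC and 1.55, is the higher member far to the left. In members whose own start was not counted, TLX3 among them, the promoter lies wholly or partly outside the sequence counted.

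Pairs could be compared in the same way. Among the 20 pairs in the partner test with both sequences at hand, the GC-richer promoter was the relatively higher one in NuMA in 13, and in 4 of the 6 called. FNDC4 over GCKR and ZNF593 over C1orf232, printed above, are of this kind. Among the called pairs, NOC2L with KLHL17 (76.3% and 73.7% GC) and LOC128706665 with SLX4IP (52.0% and 54.0%) went the other way. HECTD3 with UROD counts as agreeing, but GC there was 54.3% and 54.0% and neither start was counted. Fixed motifs were searched on both strands of the 300 bases. GGGCGG, the GC box bound by SP family factors, was in 12 of 13 higher members (92.3%), 4 of 8 lower (50%) and 41 of 56 not called (73.2%), and in 45.0% of all 35116 promoters in the sequence table. GC-rich sequence contains this motif more often, and the share in all higher windows was 86.6% and in all lower windows 25.9%. In the 8747 windows of any kind with a promoter sequence chosen the same way it was in 60.9%, and in the 122 members in 74.6%. For the other motifs the members' share is given beside that of these 8747 windows and of all promoters in the table. CCAAT was in 41.0% (39.1% and 34.6%), TATAAA in 6.56% (10.3% and 11.5%), and CCGGAAGT, an ETS family motif, in 10.7% (7.56% and 4.14%). TGACGTCA, the cyclic AMP response element, was in 3.28% (3.1% and 1.85%), and TGANTCA, the AP-1 motif, in 3.28% (5.5% and 7.71%). A motif of the factor NRF1 was in 0.82% (2.13% and 1.24%) and a motif of YY1 in 1.64% (2.37% and 1.2%). A match to these letters is a description of the sequence and no evidence of binding.

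Other arrangements of neighbours gave different shares of windows that could be tested. Divergent windows under 500 bp apart had a median of 93 unshared bases, and 35 of 1275 passed the filter. Of these 12 (34.3%) were higher and 1 (2.86%) lower, with a median log2 fold change of 1.34. Only 2.75% of that class passed, and a window that passed only through the group where it is high had to differ. Neighbours on 1 strand or convergent at 500 to 2000 bp had 520 of 844 windows tested, with 56 higher (10.8%) and 82 lower (15.8%). In the members the shares were 12.2% and 14.3%. The median was -0.56 in these neighbours against -0.08 in the members. Windows with no other centre within 2000 bp had 14317 of 15413 tested, with 2463 higher (17.2%) and 3504 lower (24.5%, median -0.01). The difference between members and these classes was not tested window by window, since windows are not replicates. At the bounds of the distance rule, TRAPPC6A and BLOC1S3 at 506 bp were the closest pair kept, with 8 and 6 counts in NuMA and 16 and 7 in IgG in the TRAPPC6A window and none at BLOC1S3. DST and BEND6 at 496 bp, with 0 counts at DST in both NuMA libraries and 7 in each IgG library, were the nearest pair left out. The widest pair kept was at TTK, at 1978 bp, with 18 and 16 counts in NuMA and 27 and 18 in IgG. GPR33 and its partner at 2009 bp were the next outside, with 17 and 22 counts at GPR33 in NuMA and 40 and 31 in IgG.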

How the data were processed

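The authors deposited a table of raw counts, whole numbers of reads per promoter window, for 6 libraries. Their deposited start-site profile, signal summed over genes at 6000 positions, was used here only for the alternative scaling by its outermost 500 positions a side. Tools listed in the submitters' processing notes are BWA (0.7.17-r1188), featureCounts, bedtools and MACS2, on the build hg38, with no role given. How reads in overlapping windows were treated is not given in the sources used here and was read from the values.

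Symbols come from position: each window, listed only by Ensembl identifier, was given the nearest protein-coding RefSeq gene (GRCh38.p14) starting within 1000 bp. A gene whose strand was not at hand was taken to lie on the window's strand, so some names may come from a gene's far end. Naming by position covered 83.3% of windows and 228 of 296 members (median distance 35.5 bp), against 2.58% of windows shifted by 20000 bp. Among members, 16 share a symbol with another.

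Tests used edgeR 4.0.16 under R 4.3.3 (TMM scaling, a filterByExpr minimum count of 10, quasi-likelihood F-tests), with Benjamini-Hochberg adjustment over all windows or pairs tested and a threshold of 0.05. NuMA over IgG used the 4 ChIP libraries. Each group over input used all 6, where each input is a single library assumed to vary like the ChIP groups. The partner test had 2 columns per library, the library as block, and strand by group. Single values were compared over libraries by exact permutation. The fits were also run on simulated data, in which only windows and pairs with more counts than the typical member were changed. Recovery of changes at the members' depth was therefore not tested.

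Pairs were named by rule: both windows called in 1 direction over IgG, the 5 smallest p-values of the partner test, and up to 3 pairs in each direction with both windows called over input. Further members are marked where they were chosen after their values were seen. Members and lists were chosen with earlier results of these data known. Alternatives were DESeq2 1.42.0, other scalings, filters, own inputs, a replicate block, overlap limits and leaving out each library. The split by whether a member's own start was counted was chosen after seeing the data. Replicate numbers in the labels were checked for pairing but do not say what a number shares.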

Additional observations from a re-analysis of the deposited data

How the results depend on the processing

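At a median of 8 to 14 counts per ChIP library, 107 of the 296 members could not be tested over IgG, and an absent call there says nothing. No called window or named pair changed sign under an alternative, but the balance of directions depends on scaling. The members' median went from -0.08 to 1.25 over IgG and from -0.26 to 0.04 over input with flank scaling. For NuMA over IgG, 23 higher and 27 lower members became 13 and 15 with DESeq2, 85 and 5 with flank scaling, 6 and 7 with a minimum of 30 counts in both libraries of a ChIP group, and 4 and 1 when each arm was taken over its own input. They became 8 and 12 in members that share at most 500 bases. Leaving out 1 library gave 3 to 28 higher and 9 to 16 lower. For NuMA over input, 21 higher and 14 lower became 5 and 2 with DESeq2. The higher became 13 with no filter, 13 over the own input and 6 with scaling to total counts, and 3 to 21 without 1 library. The lower became 5 with flank scaling, 28 with total counts and 6 to 10 without 1 library. For IgG over input, flank scaling gave 17 lower in place of 0, and leaving out 1 library gave 0 to 1 in each direction. The 24 pairs of the partner test became 11 with no filter, and 5 to 22 without 1 library. The cause of these shifts was not tested.

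The replicate block gave 25 higher and 31 lower members over IgG, with all 23 and all 27 of the unblocked calls among them. Deviations of same-numbered NuMA and IgG libraries had a correlation of 0.179 over 15727 windows, from 1 pair of numbers, so the number is not shown to mark a shared culture. Of the 50 members called over IgG, none kept the call under every alternative.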
